A study of Mus musculus with 224 samples.

Results

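Genes whose symbol begins with Nduf encode most of the nuclear subunits of mitochondrial complex I and several of the factors that put it together. Their expression was examined in 5 brain regions of mice exposed to ethanol vapor, voluntary ethanol drinking, both or neither. A gene was included where the array held a probeset (a set of short probes read as 1 value) annotated to that gene symbol alone. This gave 88 probesets of 44 genes, out of 18193 genes with such a probeset. Of these genes, 22 had 1 probeset and 22 had several, up to 6, and each gene was represented in a region by the probeset with the highest mean there. The genes comprised 6 core subunits of the electron-input (N) and quinone-binding (Q) modules, 8 accessory subunits of the matrix arm, 8 of the proximal membrane arm and 11 of the distal membrane arm, the acyl carrier protein Ndufab1, 8 assembly factors, and Ndufa4 with its paralog Ndufa4l2. The 10 Nduf probesets annotated to several symbols were left out, so Ndufs6 and Ndufa11 were not analysed here, and Ndufb4 was represented only by a dim probeset. Ndufb4 and Ndufa4l2 were the members below the median of all probesets in each region.

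Complex I, NADH:ubiquinone oxidoreductase, is the entry point of the respiratory chain. It passes electrons from NADH through a flavin and a row of iron-sulfur clusters to ubiquinone and pumps protons across the inner mitochondrial membrane. The matrix arm holds the redox centers, the membrane arm holds the pumps, and the accessory subunits surround and stabilize both arms. Neurons rely heavily on this pathway for ATP, and ethanol oxidation yields NADH. The core subunits encoded by mitochondrial DNA do not carry Nduf symbols and were not analysed here. Ndufa4 was named as a complex I subunit and is now regarded as a component of cytochrome c oxidase.

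The mice were adult male C57BL/6J, bought at 10 weeks of age. CIE Drinking mice received chronic intermittent ethanol (CIE) vapor for 16 h per day over 4 days in each of 4 cycles and, after 72 h without ethanol, had 2-bottle choice access to 15% ethanol and water for 2 h per day over 5 days between cycles. Air Drinking mice had the same drinking access, after 6 weeks of baseline drinking in both drinking groups, but breathed air in the chambers. CIE NonDrinking mice had the vapor and only water, and Air NonDrinking mice had air and only water. Every mouse was injected with the alcohol dehydrogenase inhibitor pyrazole (1 mmol/kg) before chamber sessions, so pyrazole was common to all groups, while only CIE mice also received injected ethanol (1.6 g/kg). Tissue was taken on the last drinking day before access. One array was read per mouse and region: 45 from the bed nucleus of stria terminalis (BNST), 42 from hippocampus (HPC), 47 from prefrontal cortex (PFC), 47 from nucleus accumbens (NAC) and 43 from the amygdala's central nucleus (CeA), with 8 to 12 arrays per group and region. The groups were set against each other in 6 comparisons: vapor among drinkers (Comparison 1, CIE Drinking minus Air Drinking), vapor among non-drinkers (Comparison 2, CIE NonDrinking minus Air NonDrinking), drinking after vapor (Comparison 3, CIE Drinking minus CIE NonDrinking), both against neither (Comparison 4, CIE Drinking minus Air NonDrinking), vapor alone against drinking alone (Comparison 5, CIE NonDrinking minus Air Drinking) and drinking alone (Comparison 6, Air Drinking minus Air NonDrinking). These comparisons share groups and are not independent of each other. By the paper's account, the drinking groups had been without ethanol for a shorter time at tissue collection than the non-drinking groups. Drinking and withdrawal time therefore cannot be told apart in comparisons of drinkers with non-drinkers. The paper also reports higher ethanol intake in CIE Drinking than in Air Drinking mice after most cycles. Vapor and the amount drunk cannot be told apart in Comparison 1. A vapor by drinking interaction, the Comparison 1 change minus the Comparison 2 change, was also tested. Values were log2 expression, a log2 fold change is the first group minus the second, and a gene was called where its adjusted p, from LIMMA over all probesets of the region, did not exceed 0.01. Levels of different probesets, and levels in different regions, were not compared, since probes differ in brightness and each region was normalized separately. The markers listed for each region lay above the median of all probesets in their own region (3 of 3 for PFC, and 4 of 4 each for NAC, HPC, BNST and CeA), although most lay above it elsewhere too. These are whole-tissue samples, in which fewer cells of a type and less RNA per cell cannot be told apart.

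The promoters of the 4 called genes are shown because these genes carry the calls described below. Each run is the 250 bases before the RefSeq transcription start, from the gene's own strand in GRCm38.p6, and capitals mark matches to a motif bound by NRF1, a regulator of nuclear genes for mitochondrial proteins (letters GCGCANGCG, either strand).
Ndufs5 (chr4:123718187-123718436, minus strand): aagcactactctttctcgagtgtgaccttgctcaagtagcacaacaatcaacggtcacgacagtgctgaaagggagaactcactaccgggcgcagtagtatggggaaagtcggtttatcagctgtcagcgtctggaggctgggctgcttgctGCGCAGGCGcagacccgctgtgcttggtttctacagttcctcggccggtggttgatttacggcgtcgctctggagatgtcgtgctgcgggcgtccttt
Ndufaf4 (chr4:24897833-24898082, plus strand): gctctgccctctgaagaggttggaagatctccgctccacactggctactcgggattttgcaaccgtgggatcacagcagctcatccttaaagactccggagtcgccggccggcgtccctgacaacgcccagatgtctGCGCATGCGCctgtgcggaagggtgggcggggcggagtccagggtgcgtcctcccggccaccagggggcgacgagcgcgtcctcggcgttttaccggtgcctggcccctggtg
Ndufb10 (chr17:24724424-24724673, minus strand): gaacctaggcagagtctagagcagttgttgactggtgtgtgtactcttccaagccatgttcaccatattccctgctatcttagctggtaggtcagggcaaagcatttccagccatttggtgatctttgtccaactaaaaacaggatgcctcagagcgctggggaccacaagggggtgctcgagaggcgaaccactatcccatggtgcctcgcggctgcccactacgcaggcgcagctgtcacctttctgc
Ndufa6 (chr15:82354292-82354541, minus strand): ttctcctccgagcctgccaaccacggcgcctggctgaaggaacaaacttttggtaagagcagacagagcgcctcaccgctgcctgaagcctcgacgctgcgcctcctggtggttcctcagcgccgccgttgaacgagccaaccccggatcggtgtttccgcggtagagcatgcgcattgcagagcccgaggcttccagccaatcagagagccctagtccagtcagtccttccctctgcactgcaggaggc
The Ndufs5 match lay at bases -98 to -90 from the start, and the Ndufaf4 promoter held 2 overlapping matches from -113 to -104. No match was found in the Ndufb10 and Ndufa6 windows. Of the 44 genes, 39 had a promoter in the table, and 5 of them (12.8%) held the NRF1 type motif, compared with 9.47% of 14452 genes on the array and 5.16% of all 32851 promoters. The other holders were Ndufa5, Ndufa8 and Ndufb4. The ETS type motif CCGGAAG was held by 5 of 39 (12.8%), compared with 11.8% of array genes and 6.91% of all promoters, in Ndufaf1, Ndufaf8, Ndufb6, Ndufb7 and Ndufs3. The YY1 type letters AAGATGGCG and the ERR type letters TCAAGGTCA were found in 0 of 39 (1.04% and 0.374% of array genes). A match of letters is a description of the window and not evidence of binding.

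Across the 5 regions, 4 members passed the threshold, each once and each higher in CIE Drinking. In the HPC, Ndufs5, Ndufaf4 and Ndufb10 rose in Comparison 4, to 1.12, 1.23 and 1.10 times the Air NonDrinking level. In the BNST, Ndufa6 rose in Comparison 1 to 1.11 times the Air Drinking level. Ndufs5 and Ndufb10 encode accessory subunits of the proximal and the distal membrane arm, Ndufaf4 encodes an assembly factor for early intermediates, and Ndufa6 encodes a LYR-motif accessory subunit near the quinone site. In the comparisons in which they were called, most of the other Nduf genes also had small positive log2 fold changes that did not pass the test. The heat map of fold changes shows these shifts beside the near-white columns of the NAC.

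**Figure D1:**
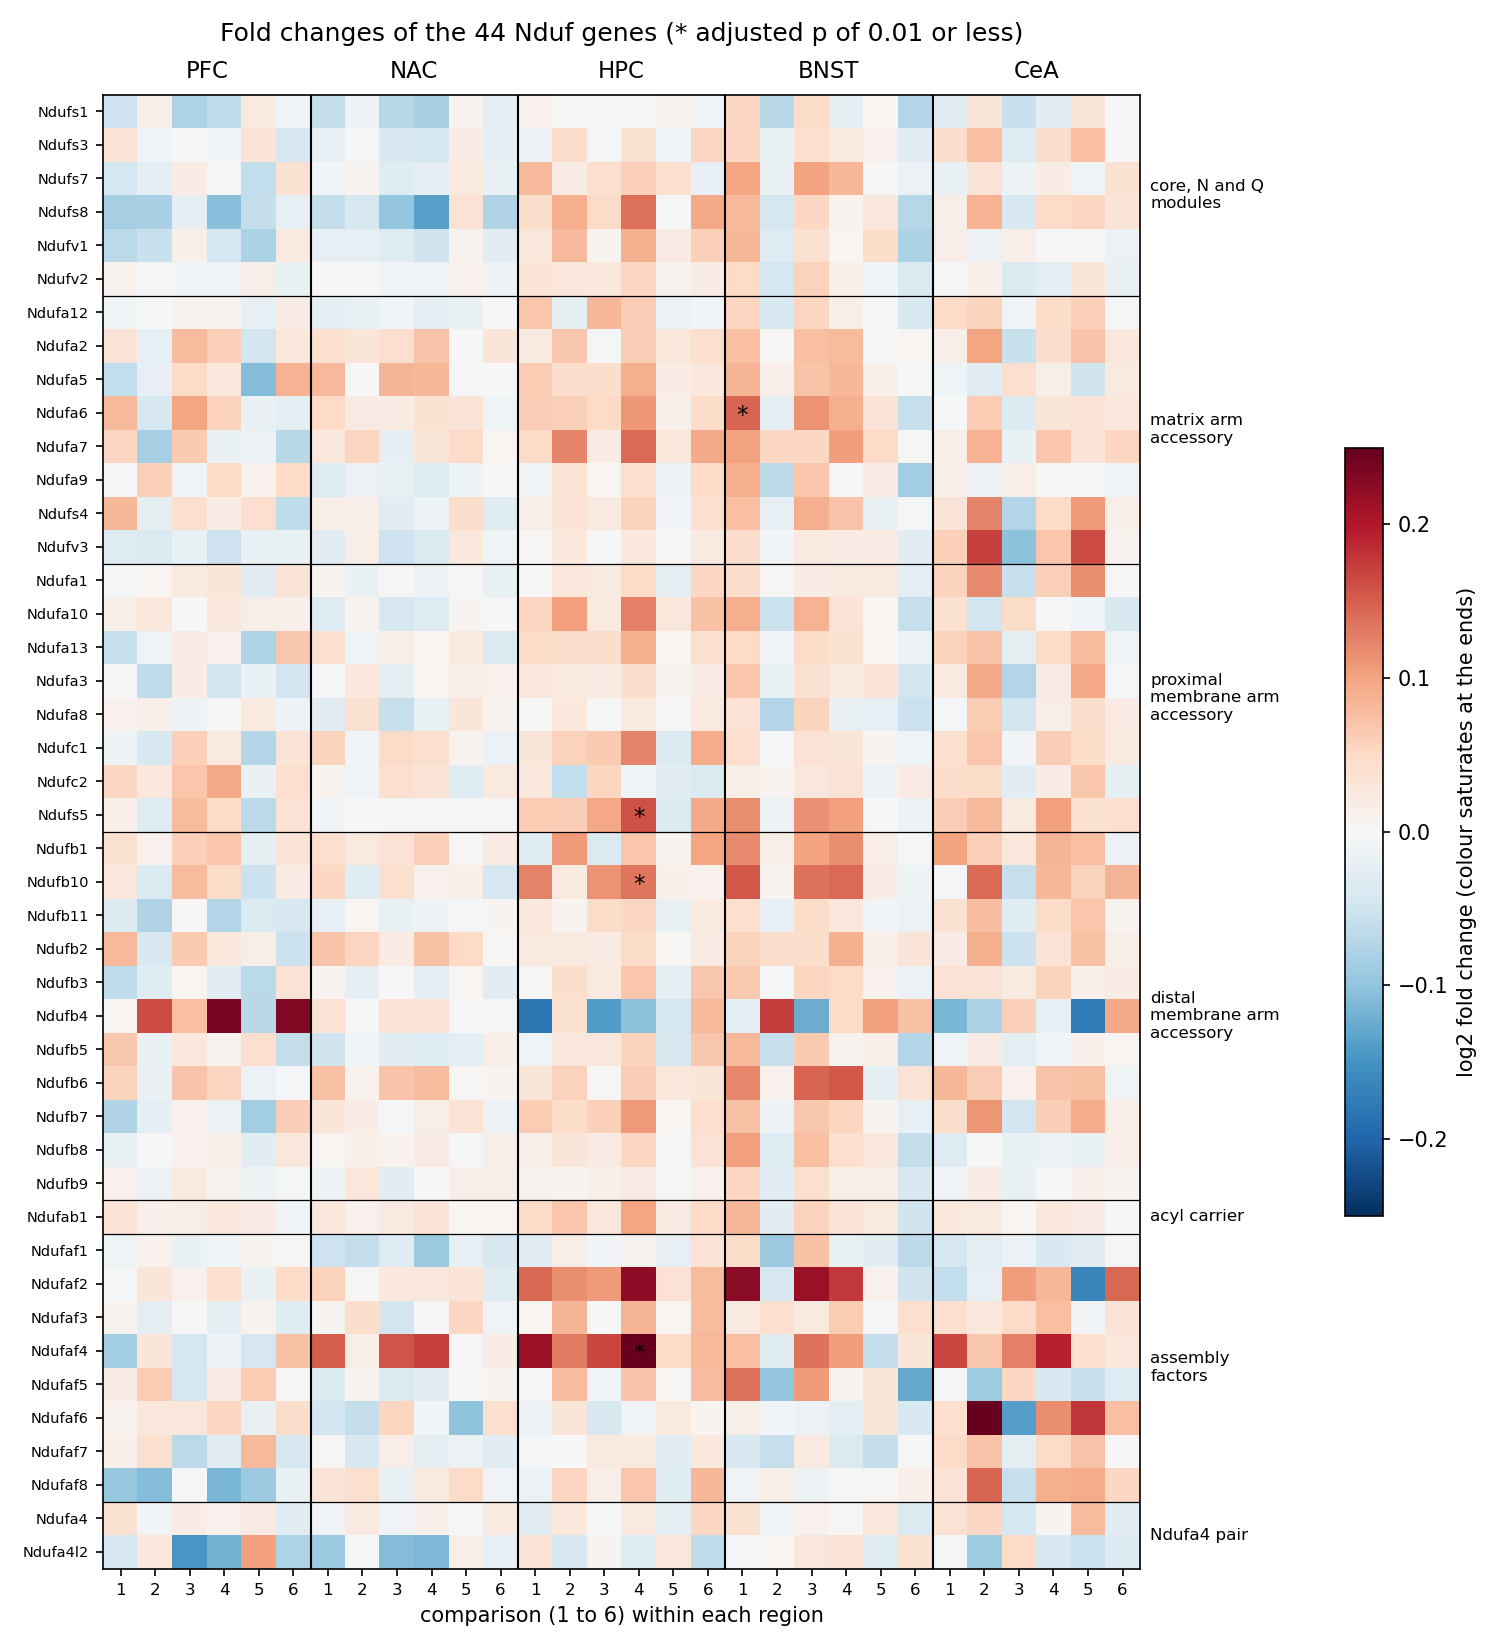
Log2 fold changes of the 44 Nduf genes (rows, grouped by place in complex I) in Comparisons 1 to 6 (columns) in each of 5 regions; red is higher in the first group, blue lower, and asterisks mark an adjusted p of 0.01 or less by LIMMA. The 4 asterisks are Ndufs5, Ndufaf4 and Ndufb10 in the HPC, Comparison 4, and Ndufa6 in the BNST, Comparison 1.

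In the HPC, 3 of 44 Nduf genes rose in Comparison 4 and 0 fell, while 1.45% of 18064 genes were called in either direction. Ndufs5 log2 values in the CIE Drinking group had a lowest, median and highest of 12.01, 12.12 and 12.17, and in the Air NonDrinking group 11.90, 11.94 and 12.02. In the groups with only vapor or only drinking the medians lay in between, at 12.03 (11.89 to 12.11, CIE NonDrinking) and 12.03 (11.90 to 12.16, Air Drinking). Of the 12 CIE Drinking arrays, 11 lay above all 8 Air NonDrinking arrays, and the log2 fold change was 0.16 (SE 0.03, adjusted p = 0.00118). Ndufb10, a disulfide-bonded subunit exposed to the intermembrane space, ran from 11.67 to 11.85 with a median of 11.74 in CIE Drinking and from 11.56 to 11.73 with a median of 11.59 in Air NonDrinking. The Air Drinking (11.51, 11.62, 11.76) and CIE NonDrinking (11.54, 11.65, 11.75) values of Ndufb10 lay close to those of Air NonDrinking. The Ndufb10 groups overlapped in part, with 7 of 12 CIE Drinking arrays above all Air NonDrinking arrays, and the difference in means was 0.13 on the log2 scale (SE 0.03, adjusted p = 0.00591). In Comparison 1 the Ndufb10 fold change was 0.12 (SE 0.03, adjusted p = 0.0107), just outside the threshold.

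Ndufaf4 had the widest range of the 3. Its lowest, median and highest values were 10.39, 10.66 and 10.81 in CIE Drinking, 10.05, 10.41 and 10.70 in Air Drinking, 10.16, 10.47 and 10.72 in CIE NonDrinking, and 10.19, 10.33 and 10.46 in Air NonDrinking. The 8 Air NonDrinking arrays stayed in the lower part of that range, and 10 of 12 CIE Drinking arrays lay above all of them (log2 fold change 0.30, SE 0.07, adjusted p = 0.0056). The second Ndufaf4 probeset did not show this rise: its fold change in the HPC was -0.07 (SE 0.04, adjusted p = 0.315), and averaging both probesets gave 0.11 (adjusted p = 0.162). The call therefore holds for 1 of 2 probesets, and which transcripts each probeset detects was not tested. The brighter Ndufaf4 probeset was also higher in Comparison 4 in the NAC (0.17, SE 0.05, adjusted p = 0.0168) and the CeA (0.19, SE 0.06, adjusted p = 0.0547), neither past the threshold, and it differed little in the PFC (-0.01, SE 0.04).

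Ndufa10, an accessory subunit related to nucleoside kinases, was the member just outside the threshold in HPC Comparison 4 (0.13, SE 0.03, adjusted p = 0.0101). Its values ran from 12.31 to 12.60 (median 12.50) in CIE Drinking, from 12.34 to 12.52 (median 12.45) in Air Drinking, from 12.39 to 12.54 (median 12.46) in CIE NonDrinking and from 12.26 to 12.46 (median 12.38) in Air NonDrinking. The Air NonDrinking arrays were the low ones, with 9 of 12 CIE Drinking arrays above all 8. Next in order were Ndufc1 (0.12, adjusted p = 0.019), Ndufb7 (0.11, adjusted p = 0.0211) and Ndufa7 (0.14, adjusted p = 0.0214). A second probeset of Ndufa7 (0.17, SE 0.03, adjusted p = 0.00135) and of Ndufb7 (0.14, SE 0.03, adjusted p = 0.0039) did pass, so for these genes the call turned on the choice of probeset.

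**Figure D2:**
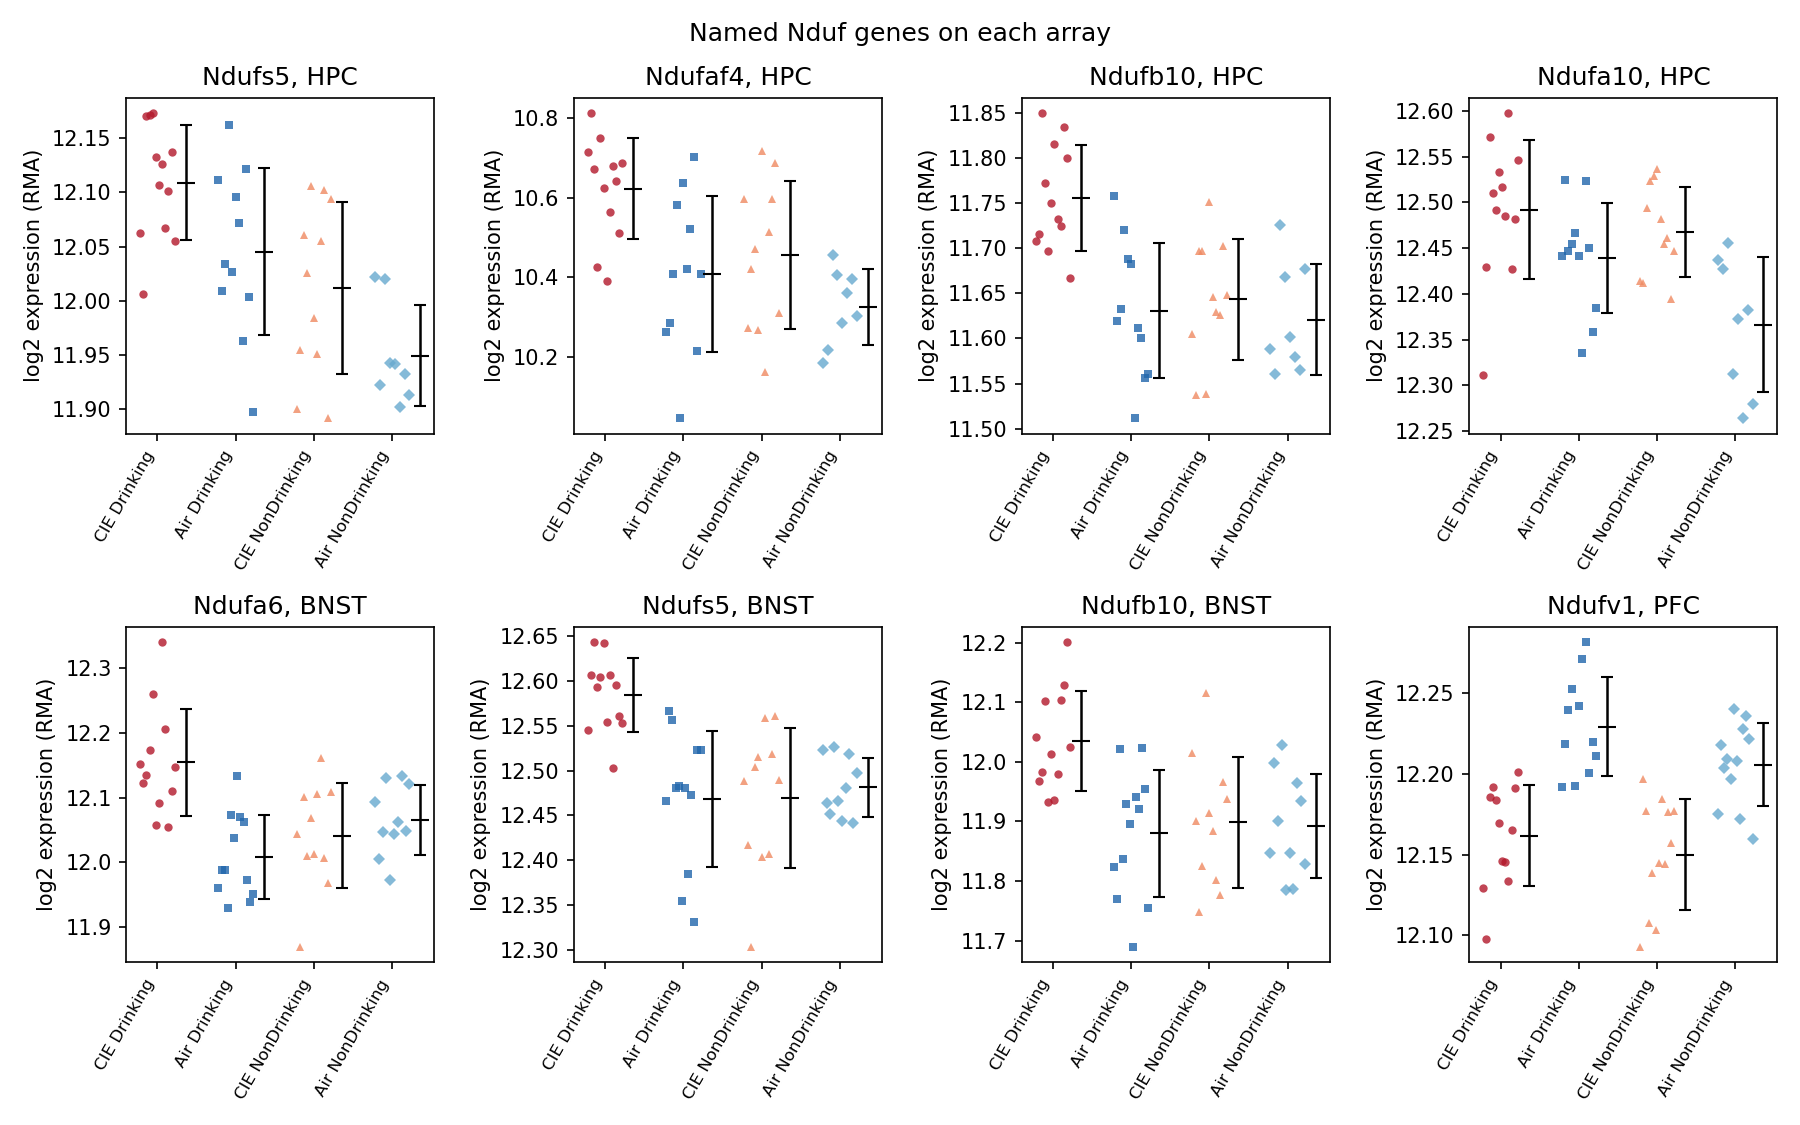
Log2 expression (RMA) of 6 named Nduf genes on every array, by group, in the region of their smallest adjusted p and, for Ndufs5 and Ndufb10, also in the BNST; horizontal marks and bars are means ± SD, and each panel has its own axis. For Ndufs5 in the HPC, 11 of 12 CIE Drinking arrays lie above all 8 Air NonDrinking arrays; for Ndufv1 in the PFC the CIE groups have the lower medians (12.17 and 12.15, against 12.22 and 12.21), their arrays overlap those of the Air groups in part, and the gene was not called.

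Over all 44 genes, 40 had a positive log2 fold change in HPC Comparison 4, with a median of 0.06 and a range of -0.10 to 0.30, while the median over all genes tested was -0.02 and 37.4% of those were positive. An unadjusted p under 0.05 was reached by 22 members, all positive (50%), and by 17.1% of all genes, or 5.08% with a positive sign. By role, the positive counts were 6 of 6 N and Q module core subunits (median 0.06), 8 of 8 matrix arm accessory subunits (0.06), 7 of 8 proximal (0.07) and 10 of 11 distal (0.06) membrane arm accessory subunits, and 7 of 8 assembly factors (0.07). Ndufab1 had 0.10 (adjusted p = 0.0487), Ndufa4 0.02 (adjusted p = 0.615) and Ndufa4l2 -0.03 (adjusted p = 0.794). Among assembly factors, after Ndufaf4, Ndufaf2 had 0.22 (SE 0.07, adjusted p = 0.0288) and Ndufaf3 0.09 (SE 0.03, adjusted p = 0.0518). Ndufaf8 (0.07), Ndufaf5 (0.07), Ndufaf7 (0.02), Ndufaf1 (0.01) and Ndufaf6 (-0.01) had adjusted p of 0.215 or more. The members below 0 were Ndufb4, Ndufa4l2, Ndufc2 and Ndufaf6, and the first 2 of these are the dim ones.

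The other HPC comparisons had 0 members called. In Comparison 1, 32 of 44 were positive (median 0.03, 8 at an unadjusted p under 0.05), against 0.399% of genes called. In Comparison 2, 39 were positive (median 0.04, 8 at an unadjusted p under 0.05), led by Ndufa10 (0.10, adjusted p = 0.332) and Ndufa7 (0.12, adjusted p = 0.342). In Comparison 3, 35 were positive (median 0.02, 8 at an unadjusted p under 0.05), led by Ndufb10 (0.11, adjusted p = 0.0425) and Ndufs5 (0.10, adjusted p = 0.0815). In Comparison 5, 25 were positive (median 0.00, with 0 at an unadjusted p under 0.05) and an adjusted p of 1.00 for every member. In Comparison 6, 39 were positive (median 0.04, 13 at an unadjusted p under 0.05), led by Ndufs5 (0.10, adjusted p = 0.594) and Ndufaf3 (0.08, adjusted p = 0.596). For the interaction, 18 were positive (median -0.02, 5 at an unadjusted p under 0.05), with Ndufb1 (-0.14) and Ndufb4 (-0.22) at the smallest adjusted p of 0.505. The shares of all genes at an unadjusted p under 0.05 in Comparisons 1, 2, 3, 5 and 6 and the interaction were 14.7%, 9.24%, 12.1%, 4.11%, 6.47% and 8.86%, and the members' shares were 18.2%, 18.2%, 18.2%, 0%, 29.5% and 11.4%. In the same order 38%, 50.6%, 35.2%, 50.7%, 49% and 40.4% of all genes were positive, so the interaction's 18 of 44 members (40.9%) lay at the background. Comparisons 2, 3, 5 and 6 and the interaction called 0% of all genes in the HPC. Comparisons 2, 4 and 6 share the 8 Air NonDrinking arrays, in which the Nduf genes were low: the median over the 44 genes on an array, taken as its difference from the region mean, was -0.04 ± 0.05 (SD, n = 8) there, 0.03 ± 0.04 (n = 12) in CIE Drinking, 0.00 ± 0.05 (n = 11) in Air Drinking and 0.00 ± 0.04 (n = 11) in CIE NonDrinking. On this measure 8 of 12 CIE Drinking arrays lay above every Air NonDrinking array.

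**Figure D3:**
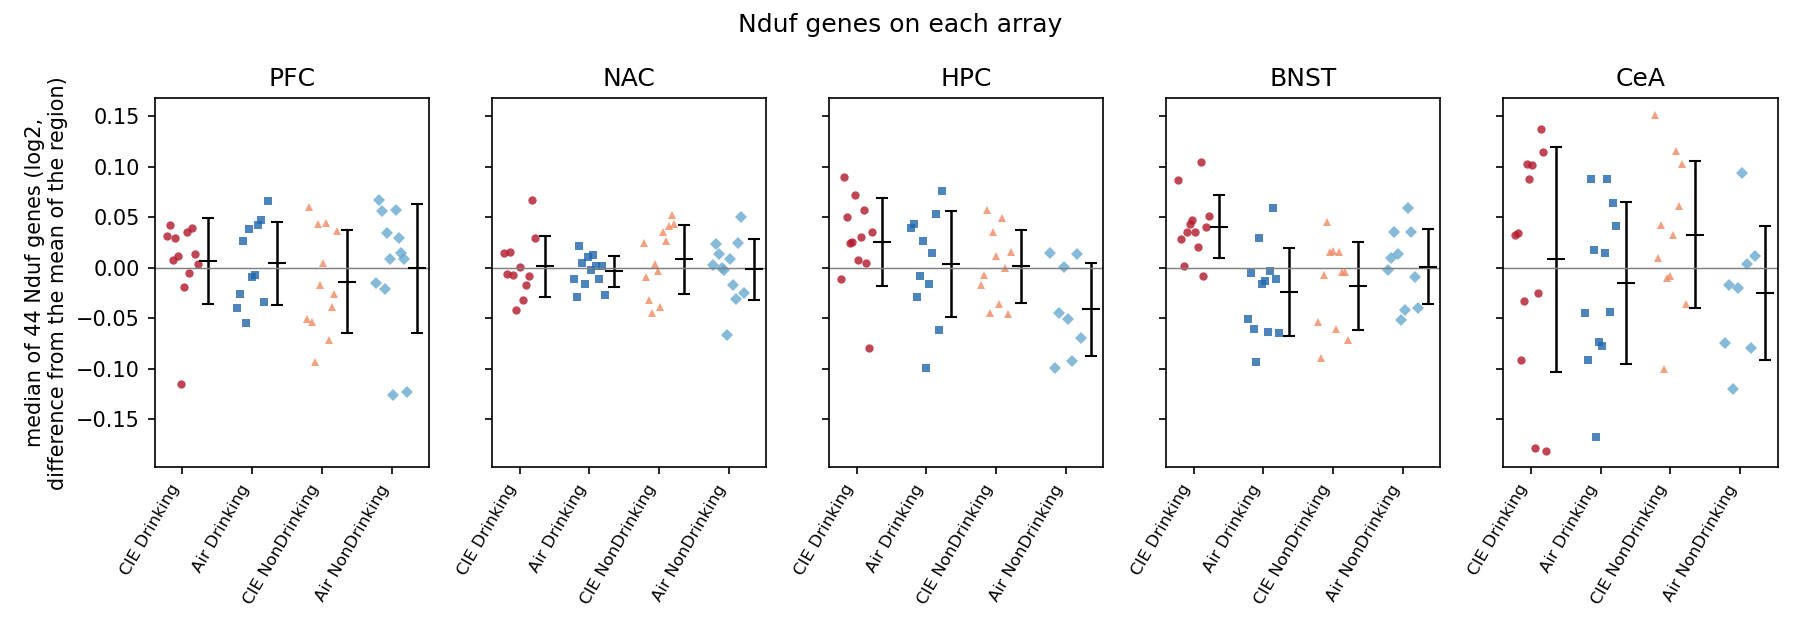
Median over the 44 Nduf genes on each array, as the log2 difference from each gene's mean in the region, by group and region; horizontal marks and bars are means ± SD of the arrays. In the BNST the CIE Drinking arrays run from -0.01 to 0.10 and sit highest, in the HPC the Air NonDrinking arrays sit lowest, and the CeA arrays spread most.

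Other respiratory genes were read beside the members in HPC Comparison 4. Of 36 subunits of complexes II to V, 28 were positive (median 0.03), and Uqcr11, a small subunit of complex III, rose (0.15, SE 0.03, adjusted p = 0.00166). Of 10 complex I assembly factors with other names, 8 were positive (median 0.04) and 0 were called, with a smallest adjusted p of 0.0171. Of 11 genes for general mitochondrial content, such as citrate synthase and porins, 4 were positive (median 0.00) and 0 were called. Among 9 regulators of mitochondrial genes, Ppargc1a, the coactivator PGC-1α, rose (0.49, SE 0.12, adjusted p = 0.00591) and also rose in Comparison 1 (0.49, SE 0.11, adjusted p = 0.00582), while 6 of the 9 were negative in Comparison 4 (median -0.01). Cell markers moved in the same comparison. Of 5 microglial markers 4 were positive (median 0.05) and Cx3cr1 rose (0.34, SE 0.08, adjusted p = 0.00309), with the mean level of the list at 9.65 to 10.0 in CIE Drinking and 9.63 to 10.0 in Air NonDrinking arrays. Of 6 neuronal markers 2 were positive (median -0.03), while the 3 excitatory neuron markers were all positive (median 0.13, highest 0.54) and 1 of 3 inhibitory neuron markers was (median -0.02). The 3 ependymal (median -0.13) and 3 endothelial (median -0.05) markers were all negative, as were 3 of 4 oligodendrocyte (median -0.05) and 3 of 5 astrocyte markers (median -0.03), with 0 called. Of 5 choroid plexus markers 3 were positive (median 0.10, highest 1.06), with Clic6, Folr1 and Kcnj13 not above the median of all probesets. The part of these cells in the Nduf values was not tested.

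In the BNST, 1 of 44 Nduf genes rose in Comparison 1 and 0 fell, while 0.471% of 18058 genes were called. Ndufa6 values ran from 12.05 to 12.34 with a median of 12.14 in CIE Drinking and from 11.93 to 12.13 with a median of 11.99 in Air Drinking. The medians of CIE NonDrinking (12.04, range 11.87 to 12.16) and Air NonDrinking (12.05, range 11.97 to 12.13) lay between these, with overlapping arrays. The 12 CIE Drinking arrays all lay above the Air Drinking mean, 7 of them above every Air Drinking array, and the log2 fold change was 0.15 (SE 0.03, adjusted p = 0.00512). Ndufs5 came next (0.12, SE 0.03, adjusted p = 0.0115). Its CIE Drinking values of 12.50, 12.59 and 12.64 (lowest, median, highest) overlapped Air Drinking (12.33, 12.48, 12.57), CIE NonDrinking (12.30, 12.49, 12.56) and Air NonDrinking (12.44, 12.47, 12.53), yet 11 of 12 CIE Drinking arrays lay above all 10 Air NonDrinking arrays.

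The other members near the threshold in BNST Comparison 1 were Ndufa9, an accessory subunit that binds NADPH (0.09, SE 0.02, adjusted p = 0.0156), the assembly factor Ndufaf2 (0.23, SE 0.06, adjusted p = 0.02), Ndufb8 (0.10, SE 0.03, adjusted p = 0.0217) and Ndufb10 (0.15, SE 0.04, adjusted p = 0.022). Ndufaf2 had values of 8.81, 9.01 and 9.16 in CIE Drinking and 8.59, 8.74 and 9.12 in Air Drinking (lowest, median, highest), so that all but 4 of the CIE Drinking arrays fell inside the Air Drinking range. Ndufb10 ran from 11.93 to 12.20 in CIE Drinking and from 11.69 to 12.02 in Air Drinking. For Ndufs8, a core subunit that carries iron-sulfur clusters, the representative probeset gave 0.08 (adjusted p = 0.0747), but other probesets of the gene passed (0.16, SE 0.03, adjusted p = 0.00326, and 0.18, SE 0.04, adjusted p = 0.00339).

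**Figure D4:**
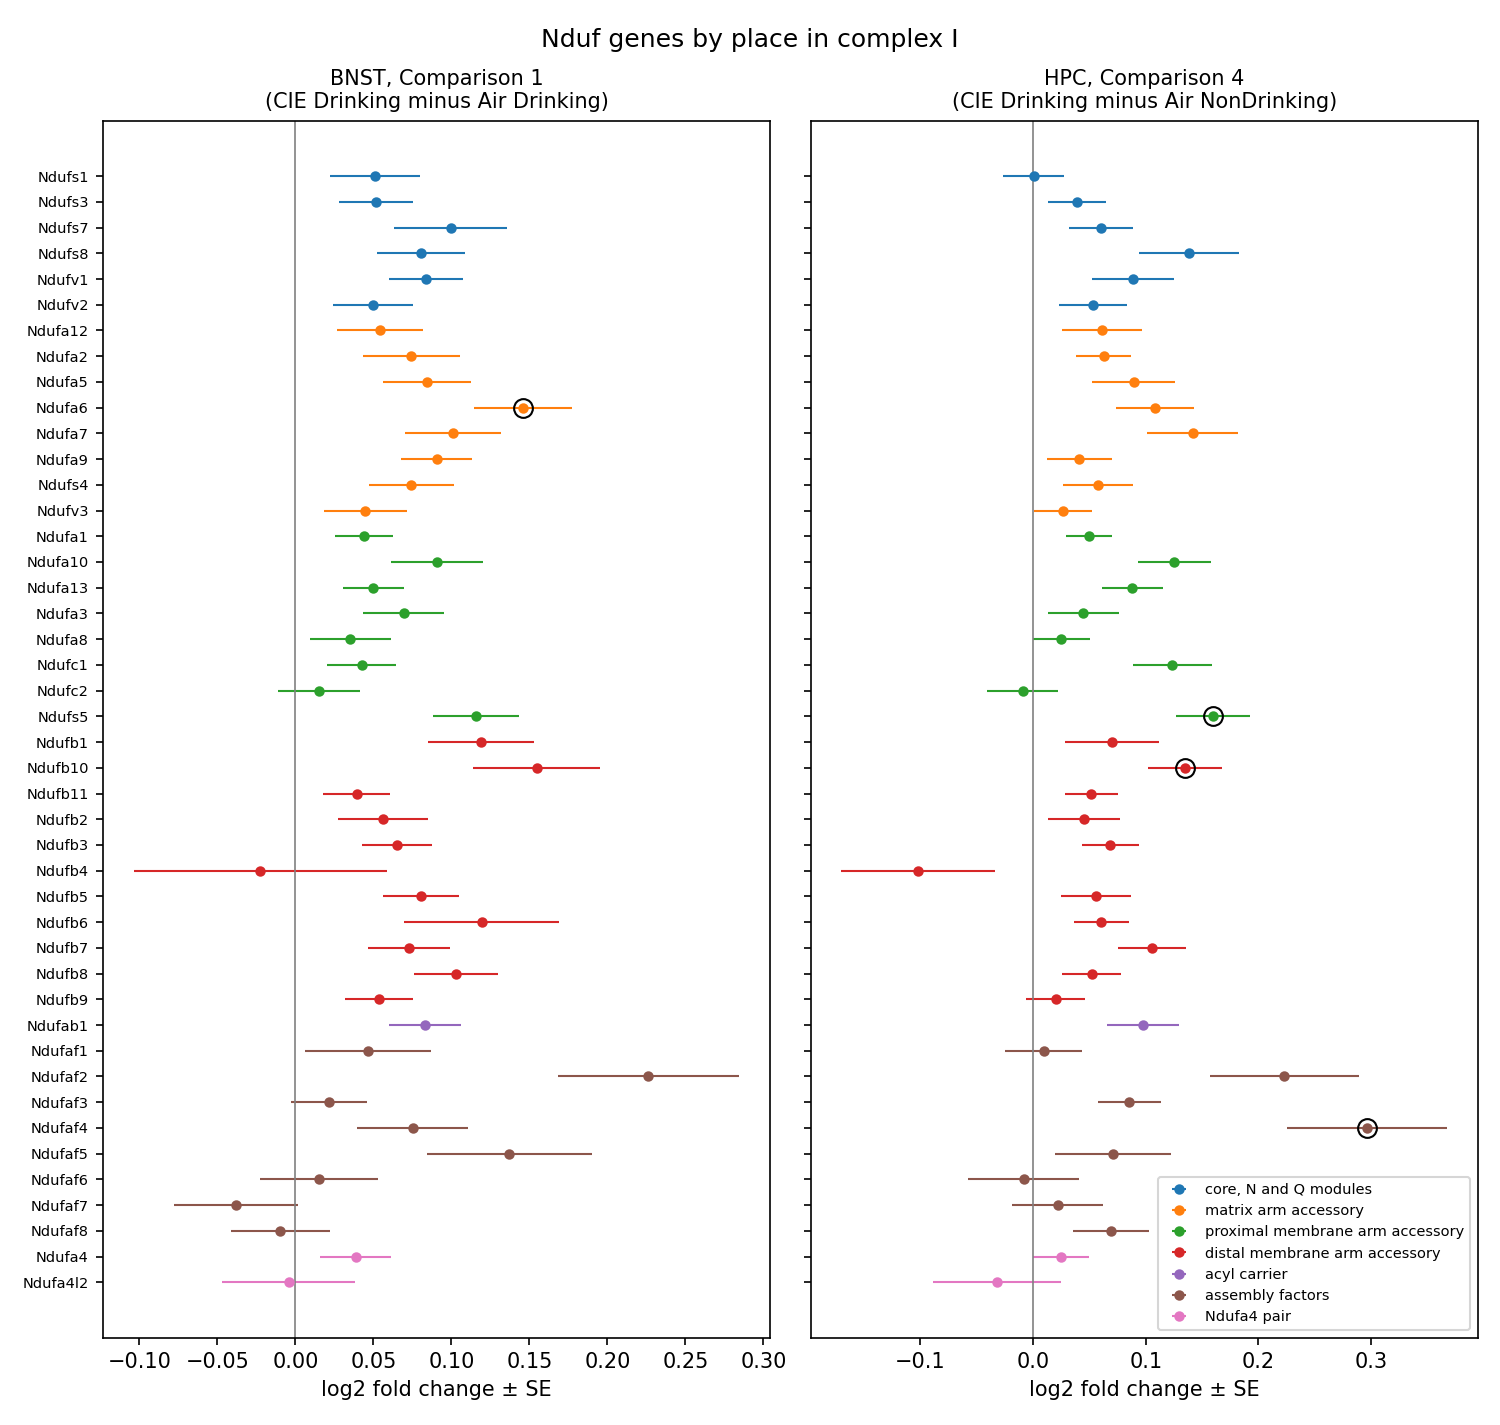
Log2 fold change ± SE of each Nduf gene in the BNST (Comparison 1) and the HPC (Comparison 4), colored by place in complex I, with rings around genes at an adjusted p of 0.01 or less and separate horizontal axes. In both panels 40 of 44 genes lie to the right of 0, with medians of 0.07 and 0.06, and the assembly factors reach from -0.04 to 0.23 in the BNST and from -0.01 to 0.30 in the HPC.

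Over all 44 genes, 40 were positive in BNST Comparison 1 (median 0.07, range -0.04 to 0.23), while the median over all genes was 0.00 and 50.5% were positive. An unadjusted p under 0.05 was reached by 27 members, all positive (61.4%), and by 24.5% of all genes, or 11.8% with a positive sign. Positive values were found in every arm of the complex, with counts of 6 of 6 core subunits (median 0.07), 8 of 8 matrix arm (0.08), 8 of 8 proximal (0.05) and 10 of 11 distal (0.07) membrane arm accessory subunits. The core subunits ranged from Ndufv2 (0.05, adjusted p = 0.23) to Ndufs7 (0.10, adjusted p = 0.0851), with Ndufv1, which carries the NADH-binding flavin, at 0.08 (adjusted p = 0.0313). Ndufab1 had 0.08 (adjusted p = 0.0295), and Ndufa4 had 0.04 (adjusted p = 0.309). Assembly factors were mixed, at 6 of 8 positive with a median of 0.03. After Ndufaf2 they were Ndufaf5 (0.14, adjusted p = 0.107), Ndufaf4 (0.08, adjusted p = 0.194), Ndufaf1 (0.05, adjusted p = 0.523), Ndufaf3 (0.02), Ndufaf6 (0.02), Ndufaf8 (-0.01) and Ndufaf7 (-0.04), the last 4 with adjusted p of 0.603 or more. Ndufa4l2 (0.00) and Ndufb4 (-0.02) were the other members below 0.

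On the median over the 44 genes, BNST CIE Drinking arrays were at 0.04 ± 0.03 (SD, n = 12), Air Drinking at -0.02 ± 0.04 (n = 12), CIE NonDrinking at -0.02 ± 0.04 (n = 11) and Air NonDrinking at 0.00 ± 0.04 (n = 10). All 12 CIE Drinking arrays lay above the median Air Drinking array, and 8 of 12 Air Drinking arrays lay below every CIE Drinking array. In Comparison 3, 41 of 44 genes were positive (median 0.05, 22 at an unadjusted p under 0.05), with 0 called against 0.0886% of all genes, led by Ndufs5 (0.11, adjusted p = 0.0205) and Ndufaf4 (0.14, adjusted p = 0.0364). In Comparison 4, 39 were positive (median 0.03, 15 at an unadjusted p under 0.05), with 0 called against 0.332%, led by Ndufs5 (0.10, adjusted p = 0.0364) and Ndufb10 (0.14, adjusted p = 0.0531). These comparisons share the CIE Drinking arrays with Comparison 1. The comparisons against Air NonDrinking without CIE Drinking had the other sign for most members. All genes leaned the same way to a lesser degree, with 47.1% positive in Comparison 2 and 42% in Comparison 6, against 29.5% and 25% of the members. In Comparison 2, 13 of 44 were positive (median -0.02, 5 at an unadjusted p under 0.05), led by Ndufa8 (-0.07) and Ndufa9 (-0.07), both at an adjusted p of 0.497. In Comparison 6, 11 were positive (median -0.02, 8 at an unadjusted p under 0.05), led by Ndufa9 (-0.09, adjusted p = 0.32) and Ndufv1 (-0.08, adjusted p = 0.406). In Comparison 5, 31 were positive (median 0.01, with 0 at an unadjusted p under 0.05 and every adjusted p at 1.00). The interaction was positive for 40 of 44 (median 0.09, against 0.01 over all genes), with 25 members at an unadjusted p under 0.05 (56.8%, against 25.6% of all genes) and 0 called, led by Ndufa9 (0.16, adjusted p = 0.0463) and Ndufb5 (0.14, adjusted p = 0.0493). In Comparisons 2 to 6 the shares of all genes at an unadjusted p under 0.05 were 9.07%, 18.5%, 10.8%, 2.79% and 11.4%, against 11.4%, 50%, 34.1%, 0% and 18.2% of the members, so Comparison 2 lay near the background. Of all genes 47.1%, 41.5%, 55.7% and 52.7% were positive in Comparisons 3, 4 and 5 and the interaction, against 93.2%, 88.6%, 70.5% and 90.9% of the members. Comparisons 2, 5 and 6 and the interaction called 0% of all genes in the BNST.

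In BNST Comparison 1, 33 of 36 subunits of complexes II to V were positive (median 0.05) and 0 were called (smallest adjusted p = 0.0148). Of the 10 assembly factors with other names 4 were positive (median -0.01), and of 11 mitochondrial content genes 8 were positive (median 0.03), with 0 called in either list. Among the regulators, Yy1, a zinc-finger transcription factor, fell by 0.15 (SE 0.03, adjusted p = 0.00789), and 4 of 9 were positive. Markers of the neighboring striatum varied widely between BNST arrays. The 4 NAC markers measured were all lower in CIE Drinking (median -0.87, range -1.48 to -0.50, 0 called), and their mean level ran from 7.41 to 10.3 in CIE Drinking, 7.67 to 10.3 in Air Drinking, 7.88 to 10.5 in CIE NonDrinking and 7.34 to 9.90 in Air NonDrinking arrays. The 4 CeA markers were lower too (median -0.31, 0 called). Of 4 oligodendrocyte markers 4 were positive (median 0.12), of 3 endothelial markers 3 (median 0.11), of 5 astrocyte markers 4 (median 0.09), of 6 neuronal markers 4 (median 0.02), and of 5 choroid plexus markers 3 (median 0.06), although Kl in the last list fell by 0.62 (SE 0.14, adjusted p = 0.00761). In the other BNST comparisons the 4 NAC markers also shared a sign, with 0 called. They were higher in Comparisons 2 (median 0.31) and 6 (0.41). They were lower in Comparisons 3 (-0.77), 4 (-0.46) and 5 (-0.12) and for the interaction (-1.18). The part of all these markers' cells and of the dissection in the Nduf values was not tested in any BNST comparison.

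In the PFC, 0 of 44 Nduf genes were called in any comparison, although over all genes 2.16%, 0.77%, 1.2%, 0.61%, 0.715% and 1.32% were called in Comparisons 1 to 6, in that order, and 3.04% for the interaction. The member nearest the threshold was Ndufv1, and it was lower in the CIE groups than in the Air groups. Its lowest, median and highest values were 12.10, 12.17 and 12.20 in CIE Drinking, 12.09, 12.15 and 12.20 in CIE NonDrinking, 12.19, 12.22 and 12.28 in Air Drinking, and 12.16, 12.21 and 12.24 in Air NonDrinking. In each of Comparisons 1, 2 and 5 the 12 CIE arrays all lay below the mean of the air group. The fold changes were -0.08 in Comparison 5 (SE 0.02, adjusted p = 0.0125), -0.07 in Comparison 1 (SE 0.02, adjusted p = 0.0333) and -0.06 in Comparison 2 (SE 0.02, adjusted p = 0.0827). Ndufa5 also had a negative value in Comparison 5 (-0.11, adjusted p = 0.0332) and a positive one in Comparison 6 (0.09, adjusted p = 0.0719). Markers also moved in the PFC. In Comparison 1, 3 of 5 astrocyte markers were positive and Gfap rose (0.89, SE 0.17, adjusted p = 0.00125). Of 3 PFC region markers 2 were negative and Cux2 fell (-0.67, SE 0.15, adjusted p = 0.00425). The 4 NAC markers were higher in Comparisons 1 (median 0.52) and 5 (0.35) and lower in Comparison 2 (-0.33), with 0 called. Markers were also called in Comparisons 3 and 6 and the interaction. The markers' part in the Nduf values was not tested.

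Ndufs8 was lower in PFC Comparisons 1 (-0.08, adjusted p = 0.129) and 4 (-0.10, adjusted p = 0.0415), and Ndufaf8 in Comparison 2 (-0.11, adjusted p = 0.106). In Comparison 3 the leading members were Ndufs1 (-0.08, adjusted p = 0.0601) and Ndufaf7 (-0.07, adjusted p = 0.0689). The dim Ndufb4 probeset had 0.24 in Comparison 4 (adjusted p = 0.035) and 0.23 in Comparison 6 (adjusted p = 0.0433), and for the interaction Ndufa7 (0.14, adjusted p = 0.11) and Ndufb2 (0.12, adjusted p = 0.168) led. The genes showed no sign common to the comparisons: 24, 17, 30, 25, 16 and 23 of 44 were positive in Comparisons 1 to 6, and 22 for the interaction, with medians from -0.02 to 0.01. The positive shares were 54.5%, 38.6%, 68.2%, 56.8%, 36.4%, 52.3% and 50% of the members, against 51.2%, 48%, 42.8%, 44.6%, 62.6%, 39.9% and 52.2% of all genes. With dim probesets left out, the shares of genes were 56.4%, 55.7%, 52.2%, 58.5%, 57.5%, 51% and 50.2%. Comparison 3 had a larger positive share than either background, and Comparisons 2 and 5 had smaller ones. In Comparisons 1 and 4 the members lay above the first background and below the second. The medians of Comparisons 1, 3, 4 and 6 and of the interaction turned negative when the quantiles were normalized again. The members at an unadjusted p under 0.05 numbered 9, 6, 6, 7, 8, 3 and 4 in the same order, or 20.5%, 13.6%, 13.6%, 15.9%, 18.2%, 6.82% and 9.09%. Over all genes the shares were 22.1%, 18.7%, 20.7%, 28.1%, 11.9%, 25.5% and 23.2%, above those of the members except in Comparison 5.

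In the NAC, 0 of 44 were called, against 0.066%, 0.011% and 0.995% of genes in Comparisons 1, 3 and 4 and 0% elsewhere. Ndufaf4 had the smallest adjusted p of the members in Comparisons 1, 3 and 4, with fold changes of 0.15, 0.16 and 0.17. Its CIE Drinking values ran from 10.70 to 10.96 with a median of 10.86, and those of Air NonDrinking from 10.52 to 10.76 with a median of 10.69. Of the 11 CIE Drinking arrays, 9 lay above all 12 Air NonDrinking arrays (adjusted p = 0.0168). Ndufs8 ran the other way in Comparison 4 (-0.14, SE 0.04, adjusted p = 0.0199), and a second probeset of Ndufs8 passed (-0.16, SE 0.04, adjusted p = 0.00481). Ndufa5 was next in Comparisons 1 and 3 (0.08 in each, adjusted p = 0.0984 and 0.0791) and led the interaction (0.08, adjusted p = 0.404) with Ndufaf4 (0.14, adjusted p = 0.412). Comparison 2 was led by Ndufaf1 (-0.06, adjusted p = 0.769) and Ndufa7 (0.05, adjusted p = 0.83), and Comparison 6 by Ndufs8 (-0.08, adjusted p = 0.878) and Ndufa13 (-0.04, adjusted p = 0.904), while every adjusted p was 1.00 in Comparison 5. Ndufaf1, an early assembly factor, had -0.09 in Comparison 4 (adjusted p = 0.0445). The positive counts were 24, 23, 19, 21, 30 and 20 of 44 in Comparisons 1 to 6 and 22 for the interaction, with medians of -0.01 to 0.01, and 7, 1, 6, 8, 1, 1 and 2 members had an unadjusted p under 0.05. These are 15.9%, 2.27%, 13.6%, 18.2%, 2.27%, 2.27% and 4.55% of the members, against 14.7%, 5.46%, 19.2%, 16.6%, 3.03%, 5.42% and 12.2% of all genes, near or below the background throughout. The positive shares were 54.5%, 52.3%, 43.2%, 47.7%, 68.2%, 45.5% and 50% of the members, against 40.6%, 50.5%, 35.4%, 36.1%, 56.8%, 44.8% and 42.6% of all genes. With dim probesets left out, which keeps 42 of the 44 members, 50.6%, 46.9%, 45%, 46.1%, 55.2%, 44.6% and 51.9% of genes were positive. Against that background the members' share was lower in Comparison 3 and for the interaction. It was higher elsewhere, by most in Comparison 5.

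In the CeA, 0 of 44 were called, against 0.0111%, 0.357% and 0.318% of genes in Comparisons 1, 3 and 4 and 0% in the remaining comparisons and the interaction. Ndufaf4 again had the smallest adjusted p in Comparisons 1 (0.17, SE 0.05, adjusted p = 0.0947), 3 (0.13, SE 0.05, adjusted p = 0.203) and 4. Ndufaf4 values were 10.39, 10.67 and 10.82 in CIE Drinking and 10.24, 10.45 and 10.56 in Air NonDrinking (lowest, median, highest), with 8 of 12 CIE Drinking arrays above all 8 Air NonDrinking arrays. Next were Ndufb6 in Comparison 1 (0.08, adjusted p = 0.419), Ndufaf2 in Comparison 3 (0.10, adjusted p = 0.377) and Ndufaf3 in Comparison 4 (0.07, adjusted p = 0.29). The second Ndufaf4 probeset gave -0.03 (adjusted p = 0.806) in Comparison 4. In Comparison 2, 35 of 44 were positive (79.5%, median 0.06, against 44.3% and -0.01 over all genes) and 4 had an unadjusted p under 0.05. These were Ndufa2 (0.10), Ndufs4 (0.12), Ndufb10 (0.14) and Ndufaf8 (0.15), all at the smallest adjusted p of 0.541. In this comparison all 6 neuronal markers were lower (median -0.18) and all 5 choroid plexus markers higher (median 0.78), with 0 called. In Comparison 4, also with 35 positive members, all 6 neuronal (median -0.07), 4 oligodendrocyte (median -0.33), 3 inhibitory neuron (median -0.29) and 4 CeA region (median -0.25) markers were lower, with 0 called. Other lists went the other way: 2 of 3 excitatory neuron (median 0.24), 3 of 3 PFC region (median 0.07) and 3 of 3 ependymal (median 0.13) markers were higher, also with 0 called. The part of these cells and of the dissection in the Nduf values was not tested. Comparisons 1, 3, 4, 5 and 6 had 30, 15, 35, 33 and 30 positive members and 1, 1, 3, 2 and 1 at an unadjusted p under 0.05, and the interaction had 12 and 0. Over all genes 41.7%, 38.6%, 35.5%, 48.5% and 46.9% were positive in these comparisons and 44.1% for the interaction, against 68.2%, 34.1%, 79.5%, 75%, 68.2% and 27.3% of the members. At an unadjusted p under 0.05 the shares of all genes were 14%, 12.9%, 7.92%, 8.09%, 4.44% and 11.2%, each above that of the members, and in Comparison 2 they were 9.91% of all genes and 9.09% of the members. In Comparison 5 several members shared the smallest adjusted p of 0.574. The smallest unadjusted p by LIMMA among them belonged to Ndufaf2 (-0.17, SE 0.06, p = 0.00687) and Ndufs4 (0.11, SE 0.05, p = 0.0368). Comparison 6 was led by Ndufaf2 (0.14, adjusted p = 0.857) and Ndufb10 (0.09, adjusted p = 0.916), and the interaction by Ndufa10 (0.08, adjusted p = 0.479) and Ndufb10 (-0.14, adjusted p = 0.494). The array medians spread more here than elsewhere, from -0.18 to 0.15, with SDs of 0.07 to 0.11 per group.

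Whether a change differed between regions was tested as a contrast of the within-region fold changes in 1 fit over all arrays. Such a contrast compares fold changes and not levels. It used 1 probeset per gene, the brightest over all arrays, so a value can differ from that of the region's own representative. The fit also used 1 variance per gene for all regions, so an SE can be too small where a region's arrays spread widely. For Ndufaf8 in Comparison 2, PFC against CeA, the SE of the difference was 0.060, against 0.068 within the CeA alone. Of 44 genes, 3 differed between the PFC and the BNST in Comparison 1 (Ndufv1, Ndufb3 and Ndufa5), against 2.34% of 17924 genes, and each was lower in the PFC and higher in the BNST. In Comparison 4, 3 differed between the PFC and the HPC (Ndufs8, Ndufaf4 and Ndufv1), against 2.47%, and 2 between the NAC and the HPC (Ndufs8 and Ndufv1), against 0.1%. Ndufs8 had -0.16 (SE 0.04) in the NAC and 0.14 (SE 0.04) in the HPC, a difference of -0.30 (SE 0.06, adjusted p = 0.00147). Ndufv1 had -0.07 (SE 0.02) in the PFC and 0.09 (SE 0.02) in the BNST in Comparison 1, a difference of -0.16 (SE 0.03, adjusted p = 0.000604). In Comparison 2, 1 member differed between the PFC and the HPC (Ndufa7, 0.402% of all genes) and 3 between the PFC and the CeA (Ndufaf8, Ndufa7 and Ndufb11, 2.69%). In Comparison 1, Ndufaf4 differed between the PFC and the HPC (1.43%) and between the PFC and the CeA (4.22%), and Ndufb8 between the BNST and the CeA (2.91%). The remaining contrasts had 0 members called. In every called difference that involved the PFC or the NAC, the change was the lower there. Region markers also differed: in PFC Comparison 1 the 4 NAC markers measured were all higher in CIE Drinking (median 0.52). In BNST Comparison 1 they were all lower (median -0.87), with 0 called in either region. The part of the dissection in the differences between regions was not tested.

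Within groups, the members varied together. After removing each group's mean, the mean pairwise correlation over arrays of the 34 subunit genes ranged from 0.232 (NAC) through 0.383 (BNST), 0.411 (PFC) and 0.434 (HPC) to 0.468 (CeA) over 42 to 47 arrays, given as a description since genes on an array share its RNA and normalization. For the 8 assembly factors it was 0.0885 to 0.161 except in the HPC, where it was 0.466. In the BNST and HPC, Ndufab1 had the highest mean correlation with the other 43 genes (0.453 and 0.579) and Ndufb4 the lowest (-0.255 and -0.168).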

How the data were processed

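RNA from 5 brain regions was hybridized to Affymetrix mouse arrays by the authors, who removed arrays of low quality, applied RMA background correction and quantile normalization with the affy package to each region separately, and used ComBat for hybridization batch. The deposited values are log2 expression, 1 per probeset and array. Software versions are not given in the sources used here, and the labels give no batch, so no within-batch values were computed. The number of arrays limits the precision.

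Groups, regions and mouse numbers came from the sample labels. LIMMA (limma 3.58.1, R 4.3.3) was fitted per region to all 4 groups, with two-sided tests, Benjamini-Hochberg adjustment over all probesets of the region (43969 to 45037) and a threshold of 0.01. Background shares count genes by their representative probeset. Arrays of a group and region carry different mouse numbers and were treated as separate animals. All arrays of a region entered its fit, and 1 fit over 224 arrays tested differences between regions. The 51 mouse numbers recur across regions, but each belongs to 1 group, so numbers paired no samples within a region. Across regions, mouse number as a random block had a consensus correlation of 0.0146. The members, gene lists and tests were chosen with earlier results of these data known. Named genes were those called, the 2 with the smallest adjusted p where none was called, all assembly factors, Ndufab1, Ndufa4 and Ndufa4l2, and, with the values of each group, the 6 with the smallest adjusted p in any comparison. The part of that rule that ranks members by level was not applied, since probesets differ in brightness. Other probesets of a gene were named where they passed the threshold or where probesets disagreed, after their values were seen. Promoters and gene starts came from RefSeq tables (GRCm38.p6), and cell and region markers from textbook lists. The fits were tested on simulated data. Alternatives were leaving out dim probesets, another variance model, fits to the compared groups alone, array quality weights, repeated quantile normalization, the mean of a gene's probesets, a threshold of 0.05 and, added after the data were seen, omitted arrays.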

Additional observations from a re-analysis of the deposited data

Results flagged for a closer look

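The changes of the following genes differed between regions at an adjusted p of 0.01 or less in the fit over all regions by LIMMA. Each value is the log2 fold change in the first region minus that in the second, followed by its adjusted p. In Comparison 1, PFC minus BNST gave Ndufv1 at -0.16 (SE 0.03, adjusted p = 0.000604), from -0.07 and 0.09, Ndufb3 at -0.13 (SE 0.03, adjusted p = 0.0012), from -0.06 and 0.07 and Ndufa5 at -0.15 (SE 0.04, adjusted p = 0.00922), from -0.06 and 0.08. In Comparison 4, NAC minus HPC gave Ndufs8 at -0.30 (SE 0.06, adjusted p = 0.00147), from -0.16 and 0.14 and Ndufv1 at -0.17 (SE 0.03, adjusted p = 0.00728), from -0.08 and 0.09. In Comparison 4, PFC minus HPC gave Ndufs8 at -0.24 (SE 0.05, adjusted p = 0.00151), from -0.10 and 0.14, Ndufaf4 at -0.31 (SE 0.07, adjusted p = 0.00225), from -0.01 and 0.30 and Ndufv1 at -0.13 (SE 0.03, adjusted p = 0.00557), from -0.04 and 0.09. In Comparison 2, PFC minus HPC gave Ndufa7 at -0.25 (SE 0.05, adjusted p = 0.00207), from -0.13 and 0.12. In Comparison 1, PFC minus HPC gave Ndufaf4 at -0.30 (SE 0.07, adjusted p = 0.00281), from -0.09 and 0.21. In Comparison 2, PFC minus CeA gave Ndufaf8 at -0.25 (SE 0.06, adjusted p = 0.00347), from -0.11 and 0.15, Ndufa7 at -0.21 (SE 0.05, adjusted p = 0.00584), from -0.13 and 0.09 and Ndufb11 at -0.16 (SE 0.04, adjusted p = 0.00638), from -0.08 and 0.08. In Comparison 1, BNST minus CeA gave Ndufb8 at 0.13 (SE 0.03, adjusted p = 0.0055), from 0.10 and -0.03. In Comparison 1, PFC minus CeA gave Ndufaf4 at -0.25 (SE 0.07, adjusted p = 0.00834), from -0.09 and 0.17. The 2 PFC contrasts of Ndufaf4 in Comparison 1 rest on the same PFC arrays, and its second probeset did not share the HPC value. Regions share 1 variance per gene in this fit, so an SE can lie below that of 1 region alone. For Ndufb11 in Comparison 2 it was 0.041, against 0.051 within the CeA. For Ndufv1 in Comparison 4, NAC minus HPC, it was 0.034, against 0.037 within the HPC. The part of the dissection in these differences was not tested. Among groups of 4 to 10 arrays, no named gene had an array standing apart from the rest by Dixon's criterion in 21 tests.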

How the results depend on the processing

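The median log2 fold change over the 44 genes moved by less than the spread between arrays under every alternative, in every region and comparison. A smaller move could still change the sign of a small median. In the PFC the medians of Comparisons 1, 3, 4 and 6 and of the interaction turned negative with repeated quantile normalization. The median stayed between 0.06 and 0.07 in BNST Comparison 1 and between 0.05 and 0.07 in HPC Comparison 4, also with any 1 array left out. The number of genes called was less stable, and the cause was not tested. In HPC Comparison 4 it went from 3 to 9 with array quality weights, 5 without the 3 arrays of lowest weight and 12 at a threshold of 0.05, and from 1 to 7 with 1 array left out (1 without Air NonDrinking mice 51, 52, 53 or 55 or CIE Drinking mice 2 or 4, and 7 without Air NonDrinking mouse 45 or CIE Drinking mouse 20). Ndufs5 was called in all 20 of these refits (largest adjusted p = 0.00379), Ndufaf4 was lost in 6 (largest 0.0169) and Ndufb10 in 9 (largest 0.0189), and Ndufb10 also when only those 2 groups were fitted (adjusted p = 0.0101). In BNST Comparison 1 the count went from 1 to 3 without dim probesets and with trend and robust variances, 15 with array quality weights, 11 at 0.05 and 0 when the other groups were not fitted, and from 0 to 5 with 1 array left out. It was 0 without CIE Drinking mice 1, 17 or 21 or Air Drinking mice 57, 59, 60 or 61, and Ndufa6 was lost in those 7 (largest adjusted p = 0.0145). It was 2 without CIE Drinking mouse 3 or Air Drinking mouse 25, 4 without Air Drinking mouse 31 and 5 without CIE Drinking mouse 14 or Air Drinking mouse 23.

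Elsewhere counts of 0 became 1 in PFC Comparison 1 and HPC Comparison 1 (without dim probesets, with trend and robust variances, with array quality weights and at 0.05, and in HPC also without the 3 arrays of lowest weight). In PFC Comparison 5 they became 1 (without dim probesets, trend and robust variances, without low-weight arrays) or 3 (weights, 0.05), and in NAC Comparison 4 they became 1 (only the groups compared, without low-weight arrays), 2 (quantiles again) or 3 (weights, 0.05). With weights they became 2 in BNST Comparison 4 and 8 for the BNST interaction. At 0.05 they became 2 in PFC Comparison 4, 1 in PFC Comparison 6, HPC Comparison 3 and BNST Comparison 4, 4 in BNST Comparison 3 and 2 for the BNST interaction. No paired analysis within a region was possible because each mouse number belongs to 1 group. With the mouse number as a replicate block across regions, and equally with trend and robust variances, genes differing between regions numbered 2 rather than 1 for PFC against HPC in Comparison 2 and for PFC against CeA in Comparison 1, and 1 rather than 0 for NAC against BNST in Comparison 1. The block changed no other call. Ndufa1, Comparison 5 in the NAC, went from 0.0033 to -0.0030 with array quality weights.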

Other observations

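Probesets annotated to Nduf genes were also read one by one. In BNST Comparison 1, 78 of 88 were positive and 3 passed the threshold, and in HPC Comparison 4, 73 were positive and 5 passed. Probesets of 1 gene had both signs for 5 and 9 of the 22 genes with several. In PFC Comparison 4 a dim second probeset of Ndufb2 fell by 0.18 (SE 0.04, adjusted p = 0.00774), and it was the only Nduf probeset called in the PFC.

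Among respiratory genes outside the Nduf family, mitochondrial content genes and regulators of mitochondrial genes, the calls were few. Uqcrc1, a core subunit of complex III, rose in PFC Comparison 5 (0.19, SE 0.03, adjusted p = 4.66e-05), Acad9, a complex I assembly factor, rose in CeA Comparison 4 (0.21, SE 0.04, adjusted p = 0.00238), and in NAC Comparison 4 Yy1 rose (0.12, SE 0.03, adjusted p = 0.00681) while the chaperonin gene Hspd1 fell by 0.11 (SE 0.03, adjusted p = 0.00649). In the CeA, 30 of 36 subunits of complexes II to V were negative in Comparison 3 and 33 of 36 were positive in Comparison 2, with 0 called in either.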
